A study of Mus musculus with 4 samples.

Results

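The 6 genes described here encode the E proteins and the Id proteins of mouse CD4+ T cells. They are the Id genes Id1, Id2 and Id3 and the E protein genes Tcf3, Tcf4 and Tcf12, taken by symbol from the deposited tables. All 6 were listed in every library, among 17478 genes listed in at least 1 library, and all 6 were tested among 12677 genes. Naive CD4+ T cells (CD44lo CD62Lhi) were sorted from spleen and lymph nodes of C57BL/6 mice aged 6 to 8 weeks. They were activated with antibodies to CD3 and CD28 and kept for 3 days in Th9 culture, which drives helper T cells to make interleukin 9. The control mice were wild type. The other mice carried the genotype label BFAR-/-, and the growth protocol describes the deletion as conditional in T cells without naming the Cre driver. Each genotype had 2 libraries, and all 4 shared the same culture. Separate mice are not stated as the source of the 2 libraries of a genotype. The spread that p-values measure here is between these libraries and may be technical.

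E proteins are basic helix-loop-helix transcription factors that bind the E-box, a short DNA element with the letters CANNTG, as dimers. Id proteins have the helix-loop-helix but no basic region, so an Id protein that pairs with an E protein keeps it off DNA. In T cells the balance between them sets thresholds in thymocyte development and shapes helper, memory and regulatory fates. TGF-beta and BMP signals act on Id genes through SMAD proteins, and antigen receptor signals act on Id3 through EGR factors. In Th9 cells, TGF-beta with interleukin 4 has been reported to lower Id3 and so to free the E protein made from Tcf3 to act at Il9.

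The libraries were of even depth, at 19058009 to 19782923 expected counts. In CPM, the count scaled to library size, 3 counts of a library are 0.151 to 0.158. Bfar stood at 36.4 and 32.9 CPM in wild type and at 8.44 and 7.79 in knockout, as the genotype labels have it. Il9 had 536.4 and 504.7 CPM in wild type and 237.8 and 270.1 in knockout. The T cell markers Cd3d, Cd3e, Cd3g, Cd4, Lck, Cd2, Cd5 and Cd28 were all present, with a summed FPKM (fragments scaled for gene length and depth, a per-length level) of 1223 to 1348 across the libraries; 5 of the 8 rose in the knockout and Cd5 fell. FPKM is used below to compare genes with each other, and CPM with edgeR's quasi-likelihood test to compare genotypes. In the knockout 26.8% of all tested genes passed that test at an adjusted p under 0.05, with 13.2% lower and 13.6% higher. In these bulk libraries a smaller share of cells with a transcript and less of it per cell cannot be told apart.

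DNA beside the genes is shown because the E-box is what E proteins bind and Il9 is the gene at the end of this route. RefSeq windows of 300 bases, from 250 before to 50 after a start (GRCm38.p6), were matched for Id2, Id3, Tcf3, Tcf12 and Il9. No window was available for Id1 or Tcf4, so only 4 of the 6 genes could be searched. Searches covered both strands, and CAGNTG, the E-box form that E2A favours, is a subset of CANNTG. The E-box letters occur in 72.3% of all 32851 windows and CAGNTG in 51.4%. The 250 bases before the Il9 start (chr13:56482258-56482507, minus strand, 5′ to 3′) held 2 E-boxes, CAAGTG and CAATTG, beginning 144 and 110 bases before the start, and neither has the CAGNTG form. Capitals mark the E-boxes.
Il9: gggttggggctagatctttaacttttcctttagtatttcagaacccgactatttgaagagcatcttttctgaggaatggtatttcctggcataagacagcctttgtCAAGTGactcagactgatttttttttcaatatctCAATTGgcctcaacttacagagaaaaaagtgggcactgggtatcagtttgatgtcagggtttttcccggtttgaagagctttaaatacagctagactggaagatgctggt

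The members' own windows are given as 30 bases around single sites, as examples of the E-box and SMAD letters found in them. Id2 (chr12:25096271-25096300) and 1 of 3 Tcf12 windows (chr9:72112040-72112069) each held an E-box of the form CAGCTG, and Tcf3 (chr10:80433672-80433701) held CACTTG, all on the minus strand. The other Tcf12 windows held 2 and 1 E-boxes, none of the CAGNTG form. The Id3 window held no E-box letters. It held the SMAD letters CAGAC at 2 places (chr4:136143643-136143672 and chr4:136143742-136143771, plus strand), 1 of them on the opposite strand. The Il9 window also held these SMAD letters at 2 places and 1 of the Tcf12 windows at 1 place, and they occur in 49.6% of all windows. The Id2 window held GGCGCC, the letters bound by SMAD proteins of the BMP branch, at 1 place, against 11.9% of all windows. The EGR letters GCGNGGGCG, present in 5.55% of all windows, were in none of the windows searched here. Capitals mark the E-box or the SMAD letters.
Id2: aatttgccacccCAGCTGggctctcgcccg
Tcf12: agatgctgccCAGCTGcgtccccgtcgcgg
Tcf3: agtgggcgtggtCACTTGggggcgtggctt
Id3 first site: tgtcctcggcgtCAGACcagcctaaggaag
Id3 second site: ggacccttggcgGTCTGttttgaataaggg

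By level the genes formed a steep order. Id2 was the most abundant, with 73.5 and 75.8 FPKM in wild type and 66.8 and 75.9 in knockout. Tcf3 came next with 64.8 and 61.6 FPKM in wild type and 55.3 and 57.1 in knockout. In each library Id2 was above Tcf3, and the ranges of the 2 genes over the 4 libraries did not overlap. Id1, an Id gene that responds strongly to BMP signals in many cells, had 42.6 and 43.4 FPKM in wild type and 33.1 and 35.7 in knockout. Tcf12, which encodes the E protein HEB, lay well under these with 13.4 to 14.2 FPKM. Tcf4, best known as the factor that specifies plasmacytoid dendritic cells, had 1.95 to 2.43 FPKM. Id3, the Id gene most tied to antigen receptor signals, was the lowest with 1.45 to 1.93 FPKM. The ranges of neighbouring genes did not overlap anywhere in this order, although the lowest value of Tcf4, 1.95, was close to the highest of Id3, 1.93. Over the 4 libraries the mean FPKM of Id2 was at or above that of 94.2% of listed genes, that of Tcf3 92.6%, and that of Id3 41.7%.

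**Figure D1:**
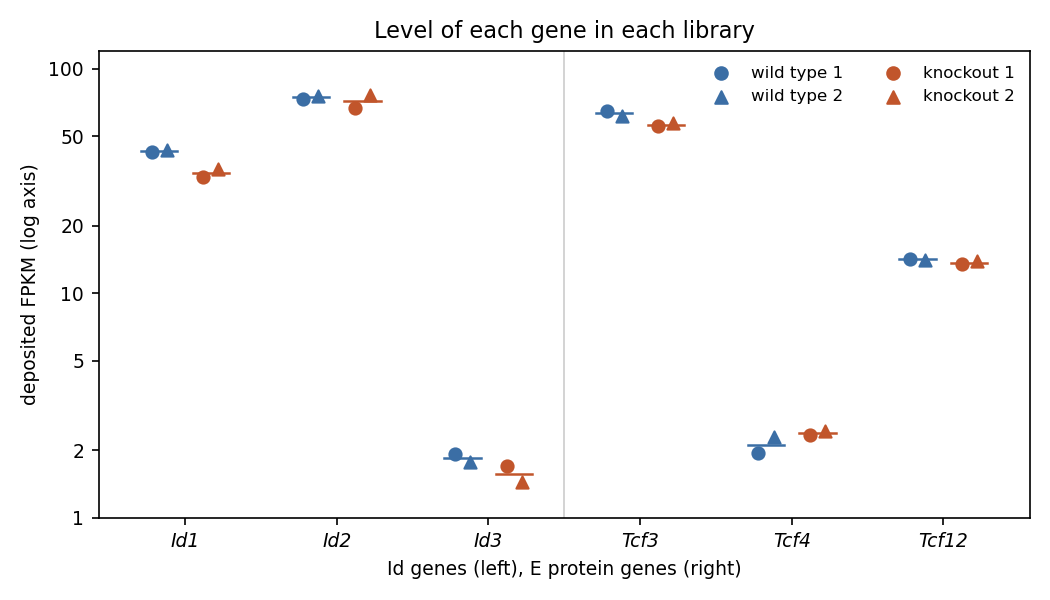
Deposited FPKM (log axis) of the Id genes and the E protein genes in each library, with wild type in blue, knockout in orange, circles for replicate 1 and triangles for replicate 2. Short lines are group means of 2 libraries. Id1 and Tcf3 sit lower in both knockout libraries, while Id2 overlaps between the genotypes.

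Id1 and Tcf3 fell in the knockout, and the other 4 genes did not pass the test. The genotypes did not overlap in CPM for 5 of the 6 genes, lower in the knockout for 4 and higher for Tcf4. Over all tested genes 63.5% did not overlap and 31.9% were lower without overlap. Calls on 2 of 6 genes are near the background share of 26.8%. The count was 1 without wild type replicate 1 or knockout replicate 2 and 0 without knockout replicate 1. It was 1 in edgeR without a filter on low counts and 0 with unfiltered log2(FPKM + 0.1) in limma. The median log2 fold change of the 6 genes was -0.11, beside 0.00 over all tested genes.

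Among the Id genes, Id1 (gene 15901, chromosome 2, 152736251 to 152737410, GRCm38) had 38.8 and 39.6 CPM in wild type and 30.2 and 32.7 in knockout. Both knockout libraries were below both wild-type libraries. The mean was 39.2 ± 0.544 CPM in wild type and 31.5 ± 1.79 in knockout (SD, n = 2). On the log2 scale Id1 changed by -0.32 ± 0.06 (SE; adjusted p = 0.00198 in edgeR), a change of -19.8%. The 95% interval of that change was -0.46 to -0.18, and its size was at or above that of 80.8% of tested genes. Without knockout replicate 1 the log2 fold change was -0.26 and the edgeR adjusted p reached the threshold at 0.05.

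Id2, which is induced in effector T cells and is required for innate lymphoid cells (gene 15902, chromosome 12, 25093799 to 25096092), had 93.4 and 96.5 CPM in wild type. In knockout it had 85.2 and 97.0 CPM, so the knockout libraries lay on either side of the wild-type libraries. Its log2 fold change, with its SE, was -0.06 ± 0.06 (adjusted p = 0.466 in edgeR), with a 95% interval of -0.18 to 0.06. The direction turned to 0.03 without knockout replicate 1.

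Id3 (gene 15903, chromosome 4, 136143822 to 136145392) rested on few reads, with 36 and 33 expected counts in wild type and 31 and 26 in knockout. The knockout values were the lower ones, but 33 and 31 counts in the nearest libraries are almost the same. The log2 fold change, with its SE, was -0.23 ± 0.26 (adjusted p = 0.57 in edgeR). Its 95% interval ran from -0.79 to 0.33, so neither a fall like that of Id1 nor a rise of the same size was detectable at this depth.

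Among the E protein genes, Tcf3 (gene 21423, chromosome 10, 80409541 to 80433976) encodes E2A, which is made as the splice forms E12 and E47. It had 215.3 and 204.8 CPM in wild type and 184.4 and 190.7 in knockout, without overlap. Wild type averaged 210 ± 7.43 CPM and knockout 187.6 ± 4.46 (SD, n = 2). Tcf3 thus fell by 10.7%, or -0.16 ± 0.04 on the log2 scale (SE; adjusted p = 0.00818 in edgeR). The 95% interval was -0.25 to -0.08, and the size of the change was at or above that of 57% of tested genes. The call was lost without wild type replicate 1 (adjusted p = 0.109), knockout replicate 1 (0.113) or knockout replicate 2 (0.0604), and edgeR without a filter on low counts gave 0.055. The direction was the same in all 4 of these fits.

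Tcf12 (gene 21406, chromosome 9, 71844252 to 72111893) had 65.8 and 65.9 CPM in wild type and 63.4 and 64.9 in knockout. The groups did not overlap, but the log2 fold change was -0.04 ± 0.05 (SE; adjusted p = 0.615 in edgeR), with a 95% interval of -0.14 to 0.06. Tcf4 (gene 21413) had 14.2 and 16.7 CPM in wild type and 17.1 and 17.7 in knockout. It was the single gene of the 6 with a positive log2 fold change, 0.17 ± 0.10 (SE; adjusted p = 0.2 in edgeR), with a 95% interval of -0.03 to 0.38. Leaving out single libraries gave 0.07 to 0.29, and wild type replicate 1 was the low library.

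**Figure D2:**
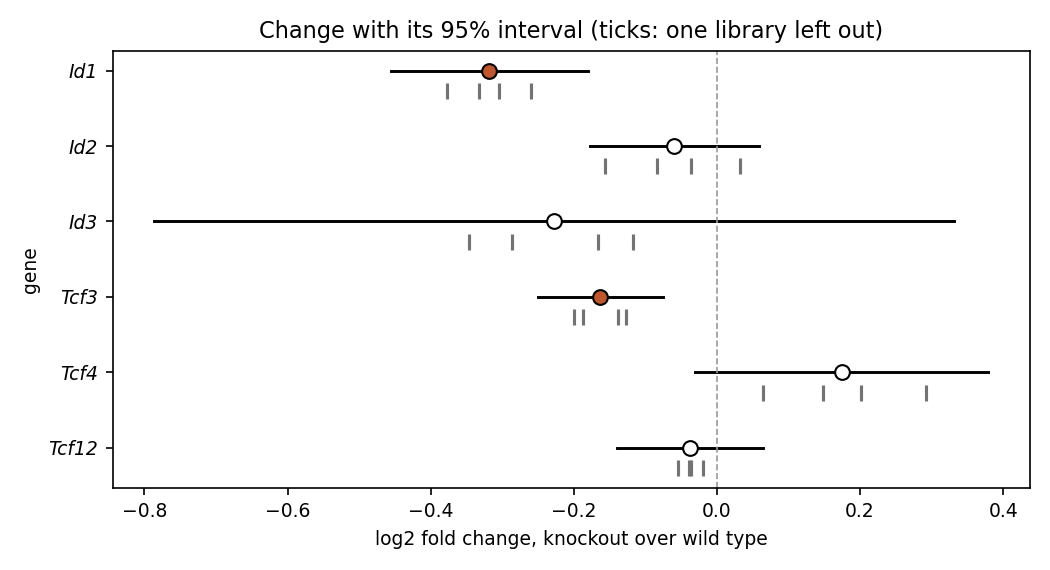
Log2 fold change of each gene, knockout over wild type (x axis), from edgeR with its 95% interval as a horizontal line. Filled points passed an adjusted p under 0.05, and grey ticks give the value with 1 library left out. The intervals of Id1 and Tcf3 lie below 0, and that of Id3 is the widest, from -0.79 to 0.33.

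Splice forms could be followed only through the mean transcript length that the tables give for each gene, which is weighted by the transcripts found in a library. For Tcf3 it was 3310.14 and 3310.89 bases in wild type and 3311.24 and 3310.2 in knockout. E12 and E47 differ in an alternative exon and are not separated in these gene-level values. For Tcf12 the mean length was 4599.21 and 4637.13 bases in wild type and 4668.19 and 4630.18 in knockout, and for Tcf4 it lay between 7187.64 and 7220.34. The genotypes overlapped in length for all 3 E protein genes. For Id1, Id2 and Id3 it was the same in all 4 libraries, at 934, 1289 and 964 bases. Little of these transcripts can be mistaken for another gene. At most 1.6% of the 31-base words of any of the 6 occur in GENCODE M21 transcripts of other genes, for Id2 all in Gm6175, and no annotated exon of another gene overlaps theirs.

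The Id and E protein levels were then summed per library. The Id sum was 118 and 121 FPKM in wild type and 101.5 and 113.1 in knockout, a mean difference of -10.2%. The E protein sum was 80.9 and 77.9 FPKM in wild type and 71.1 and 73.4 in knockout, a mean difference of -9.05%. Neither sum overlapped between the genotypes. The ratio of the Id sum to the E protein sum was 1.46 and 1.55 in wild type and 1.43 and 1.54 in knockout. Its mean was 1.51 ± 0.0666 against 1.48 ± 0.0801 (SD, n = 2), so the difference was smaller than the spread within either genotype and the values interleaved. On the log2 scale the difference, knockout minus wild type, was -0.02. Because the members were chosen together, no p-value is given for these sums, and 2 libraries against 2 cannot reach the 0.05 threshold in an exact permutation test, where the smallest two-sided p is 2 of 6 arrangements.

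The ratio depended on which genes carried it. Id2 made up most of the Id pool and Tcf3 most of the E protein pool. Id2 was 62.2% and 62.6% of the Id sum in wild type and 65.8% and 67.1% in knockout. Id1 made up 36.1% and 35.9% in wild type and 32.6% and 31.6% in knockout, without overlap. On the other side Tcf3 was 80% and 79% of the E protein sum in wild type and 77.8% in both knockout libraries. The shares of Tcf12 and Tcf4 were higher in both knockout libraries, at 18.9% and 3.3% on average against 17.8% and 2.67%. With Id1 left out the difference in the log2 ratio turned to 0.07. With Id2 left out it was -0.18, with Tcf3 left out -0.14, and with the mean of log2 FPKM, in which each gene counts equally, -0.19. In the last 3 the genotypes did not overlap.

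Single pairs of genes spread in the same way. Of 9 ratios of an Id gene to an E protein gene, 5 were lower in both knockout libraries than in both wild-type libraries, none was higher, and 4 overlapped. All 5 held Id1 or Tcf4, and Tcf4 itself did not pass the test. Over all tested genes 63.5% did not overlap in CPM, and no background share was taken for ratios. Id1 over Tcf3 was 0.658 and 0.706 in wild type and 0.598 and 0.626 in knockout. Id1 over Tcf12 was 3 and 3.08 in wild type and 2.46 and 2.58 in knockout. The ratio of Id1 to Tcf4 moved most, from a mean of 20.5 ± 1.99 to 14.4 ± 0.413 (SD, n = 2). Id2 over Tcf3, the ratio of the most abundant genes on each side, was 1.13 and 1.23 in wild type and 1.21 and 1.33 in knockout, with overlap. Id3 over Tcf3 was 0.0298 and 0.0288 in wild type and 0.0307 and 0.0254 in knockout, so in every library Tcf3 was far above Id3 and the knockout values lay on either side of wild type. The pairs share genes and are not separate results.

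**Figure D3:**
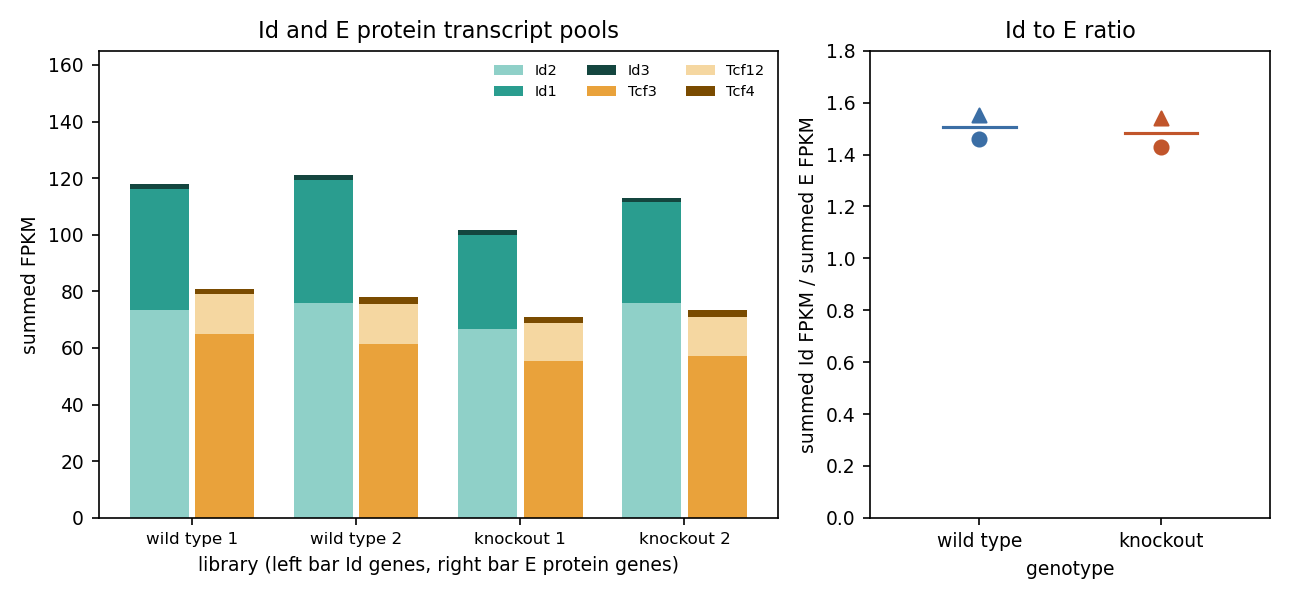
Left, stacked bars of FPKM per library for the Id genes (left bar of each library) and the E protein genes (right bar). Right, the ratio of the 2 sums in each library, circles for replicate 1 and triangles for replicate 2, with lines at the group means of 1.51 and 1.48. Both stacks are lower in the knockout libraries, and the ratios interleave.

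Likeness of pattern was measured as the root mean square difference in log2 CPM, centred on each gene's mean over the 4 libraries, over genes averaging 5 CPM or more. Nearest to Id1 were Noa1, a mitochondrial GTPase gene, and Exosc2, an RNA exosome subunit gene, at 0.00938 and 0.0115. Both fell in the knockout, by 0.33 and 0.34 on the log2 scale. Nearest to Tcf3 were Ankrd28 (0.00352) and the zinc finger factor gene Yy1 (0.00654), with log2 fold changes of -0.16 and -0.15. Nearest to Id2 were Stxbp5 (0.00427) and Marc2 (0.0123), nearest to Tcf4 were Osgepl1 (0.00974) and Iqcc (0.0117), and nearest to Tcf12 were Ogdh (0.00221) and Acp1 (0.00362). For Id3 the nearest were Egr2 (0.0162) and Tspyl4 (0.0182). Id3 itself, at 1.37 to 1.82 CPM, is under the 5 CPM asked of the compared genes, so its pattern rests on few counts. With 4 libraries many genes are this close: 161 lay within 0.05 of Id1, 1118 within 0.05 of Tcf3 and 108 within 0.05 of Id3. The measure is a description with no test.

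Upstream of the Id genes, 9 of 26 tested genes of the TGF-beta and BMP routes rose and none fell. Over all tested genes 13.6% rose and 13.2% fell, the background for this and the list counts below. The median log2 fold change was 0.09, beside 0.00 over all tested genes. The list holds ligands, receptors, SMADs and inhibitors. Receptors that feed SMAD1 and SMAD5, the branch that acts on Id1, were among those that rose. Acvrl1, the type I receptor ALK1, rose from 53.0 ± 2.29 to 76.3 ± 5.17 CPM (SD, n = 2; log2 0.53 ± 0.06, SE; edgeR adjusted p = 8.78e-06). The type II receptor genes Bmpr2 and Acvr2a rose by 0.25 and 0.45, and the ligand gene Tgfb3 by 1.49. Tgfb3 was low, with 1.83 and 2.28 FPKM in wild type and 5.56 and 5.95 in knockout. The far more abundant ligand gene Tgfb1, at 341 to 369 FPKM, had -0.08 and did not pass (edgeR adjusted p = 0.11). Smad1 had 18.5 ± 0.252 CPM in wild type and 18.7 ± 0.0856 in knockout (SD, n = 2). Smad6, an inhibitor of the SMAD1 and SMAD5 branch, was low with 0.42 to 0.51 FPKM. The inhibitor gene Skil was among the 9 that rose (log2 0.14, edgeR adjusted p = 0.0154). Smad7, another inhibitor gene, had 0.16 and did not pass (edgeR adjusted p = 0.0567). The inhibitor genes Smad6, Ski, Smurf1, Smurf2 and Bambi had -0.12, -0.05, 0.12, 0.08 and 0.17 and did not pass either. Nog was too low to be tested. Id1 was lower where Acvrl1, Bmpr2, Acvr2a and Skil were higher, but with 2 libraries per genotype this follows from the separate calls. A relation of any of these genes to Id1 was not tested. The count of 9 went to 4 in DESeq2 and in edgeR without a filter on low counts, 5 without wild type replicate 1, and 4 without knockout replicate 1 or 2.

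Of the 6 genes of the EGR route to Id3, Egr2 fell and none rose, with a median of -0.18. Calls on 1 of 6 genes are under the share of 26.8% over all tested genes. Egr2, a zinc finger factor induced by the antigen receptor, had 269.6 and 254.8 CPM in wild type and 240.6 and 203.3 in knockout (log2 -0.24 ± 0.06, SE; edgeR adjusted p = 0.00748). The fall did not pass without wild type replicate 1 (0.073) or knockout replicate 2 (0.162), nor in DESeq2 (0.22). Egr1 had 33.8, 30.6, 31.7 and 18.8 FPKM in wild type 1 and 2 and knockout 1 and 2, so the low value is that of knockout replicate 2. Id3 was also lowest in that library, but on 26 expected counts beside 36, 33 and 31 in the others, and its change did not pass. A relation of Egr1 or Egr2 to Id3 was not tested. Without knockout replicate 1 both Egr1 and Egr2 passed, and without wild type replicate 1 or knockout replicate 2 none of the 6 did.

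E proteins also work through partners and cofactors. Of 28 tissue-restricted helix-loop-helix genes, Id4 among them, 13 were listed in no library and 5 could be tested. Twist1, a factor that limits T cell cytokines, had 1.4 and 1.19 FPKM in wild type and 0.69 and 0.7 in knockout (log2 -0.90 ± 0.27, SE; edgeR adjusted p = 0.0205). It did not pass in DESeq2 (0.208) or without any 1 of the 4 libraries (0.0569 to 0.175). Ascl2, Lyl1 and Bhlha15 had log2 fold changes of 0.69, 0.49 and 0.76 and did not pass. Of 7 tested cofactors, Kat2a, which encodes the acetyltransferase GCN5, fell by 0.27 (edgeR adjusted p = 0.000844). It was the only cofactor called, beside 26.8% of all tested genes called in either direction. The coactivator gene Ep300 had 0.05 and the bridging factor gene Ldb1 -0.06, and neither passed.

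Of 8 genes for enzymes reported to act on Id or E proteins, 3 fell and none rose, with a median of -0.12. Over all tested genes 13.2% fell. Usp1, whose product removes ubiquitin from Id proteins, fell from 192.1 ± 0.574 to 162.2 ± 5.72 CPM (SD, n = 2; log2 -0.24 ± 0.04, SE; edgeR adjusted p = 0.000424). Fzr1, which encodes the APC/C adaptor CDH1 that targets Id2, fell by 0.23. Stub1 passed by a small margin (adjusted p = 0.0494) and did not in DESeq2 (0.261) or without any 1 of the 4 libraries. Protein levels of Id and E proteins were not measured.

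Genes reported to depend on E proteins went both ways, with 4 of 12 tested genes up and 1 down and a median of 0.13. Over all tested genes 13.6% were up and 13.2% down. Il7r, the interleukin 7 receptor gene, rose by 1.36, the cytokine signalling inhibitor gene Socs3 by 0.49, and Cd4 by 0.23. The cell cycle inhibitor gene Cdkn1a rose by 0.17 (adjusted p = 0.00257), with 0.0615 without knockout replicate 2. Rag1 and Ptcra, the classical thymic targets, were low in all 4 libraries, at 0.1 to 0.14 and 0.78 to 0.9 FPKM. Without knockout replicate 2 the count of called genes was 3.

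Of 20 tested factors reported to act on Il9, 4 rose and 4 fell, with a median of 0.04. Over all tested genes 13.6% rose and 13.2% fell. The list does not separate factors that raise Il9 from those that lower it, so its median gives no net direction. Stat3 and Notch2 rose, by 0.43 and 0.16, while Bcl6 and Erg had -0.35 and -0.45. Bcl6 and Erg passed edgeR (adjusted p = 0.00829 and 0.0107) but not DESeq2 (0.0626 and 0.0603). The count of called factors was 4 in DESeq2, 3 in edgeR without a filter on low counts, 5 without wild type replicate 1 or knockout replicate 1, 2 without wild type replicate 2 and 3 without knockout replicate 2. The genes Tcf7, Lef1, Tcf7l1 and Tcf7l2 share the Tcf name with the E proteins but encode HMG-box factors. None of the 4 passed edgeR or DESeq2, with 1 at an unadjusted p under 0.05. Tcf7, a factor of naive and memory T cells, had 96.6 and 86.4 FPKM in wild type and 88.7 and 80 in knockout, with overlap. Without wild type replicate 2 Tcf7 passed (log2 -0.19, edgeR adjusted p = 0.0329).

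**Figure D4:**
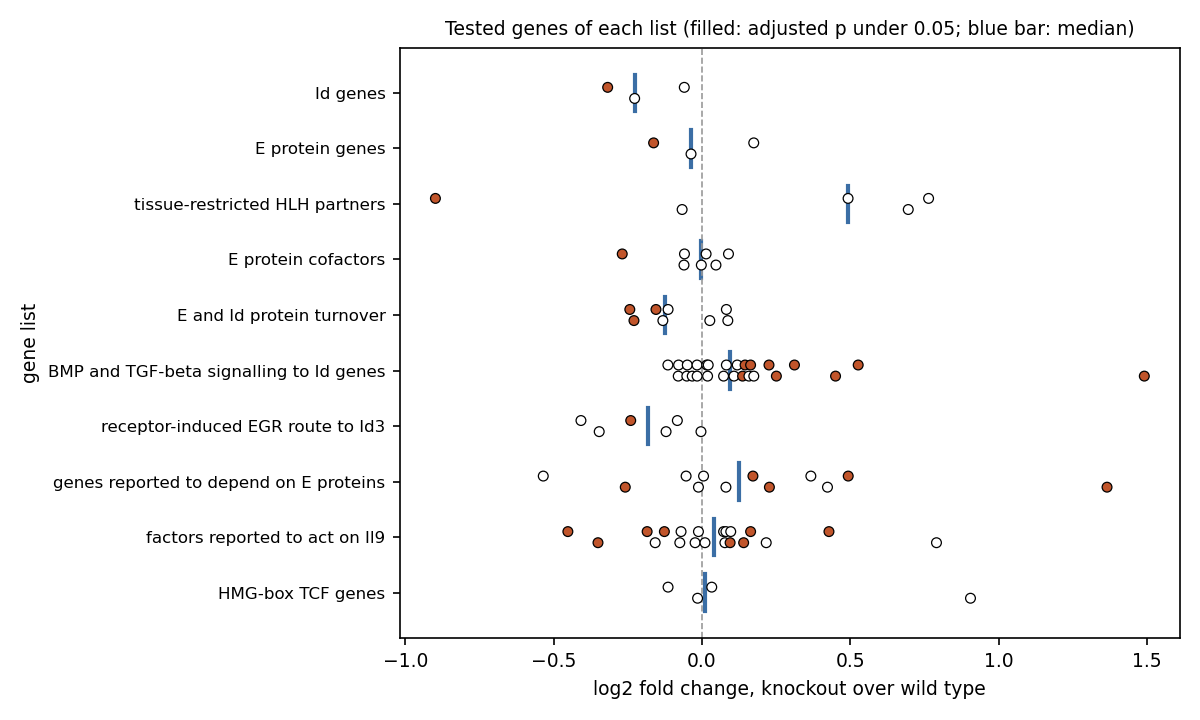
Log2 fold change, knockout over wild type (x axis), of each tested gene in the Id, E protein and related gene lists (rows). Filled points passed an adjusted p under 0.05 and blue bars are medians. The TGF-beta and BMP row has 9 filled points above 0 and none below, while the Id and E protein rows have 1 filled point each, both below 0.

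Markers of other cells that use these genes were measured in the same libraries. For plasmacytoid dendritic cells, which depend on Tcf4, Siglech, Ccr9 and Klk1 were at 0 to 0.11 FPKM. Cox6a2 had 0.39 and 0.47 FPKM in wild type and 0.4 and 0.08 in knockout. Spib had 1.42 and 1.62 FPKM in wild type and 1.11 and 1.17 in knockout. The 7 of 8 markers listed summed to 181.7 and 178.2 FPKM in wild type and 170.3 and 159.8 in knockout. That sum was made mostly by Irf8 and Bst2, which activated T cells also express, and of its 3 tested genes Bst2 rose and Irf8 fell. For B cells, all 8 markers summed to 4.61 to 5.59 FPKM, with Pax5 at 0 in wild type and at 0.04 and 0.09 in knockout. Cd79b had 3.65 and 3.82 FPKM in wild type and 2.98 and 2.42 in knockout. Cd79a went the other way, with 0.38 and 0.31 FPKM in wild type and 0.59 and 0.8 in knockout, and Ebf1 had 0.54 to 0.95 over the 4 libraries. None of their 4 tested genes passed edgeR or DESeq2, with 2 at an unadjusted p under 0.05. Of 8 markers of natural killer and innate lymphoid cells, which have high Id2, 5 were listed, with a sum of 1.06 to 1.46 FPKM, and Ncr1 was listed in no library. Of the 2 tested, Kit rose, from 1.41 to 3.44 CPM (edgeR adjusted p = 0.000608), on 26 to 69 expected counts per library. The other, Eomes, went the other way, from 3.31 CPM in wild type to 2.53 in knockout, and did not pass (edgeR adjusted p = 0.186). For CD8 and gamma-delta T cells, Cd8a and Cd8b1 were listed, with a sum of 6.54 to 7.46 FPKM, and neither passed edgeR or DESeq2, with 0 at an unadjusted p under 0.05. For macrophages and dendritic cells 6 of 8 markers were listed and summed to 91.5 and 86.4 FPKM in wild type and 76.6 and 70.1 in knockout. That sum was mostly Cd74, at 65.5 to 87.3 FPKM, which fell by 0.29. Cd68 had 3.38 to 4.08 FPKM, and of the 4 tested Xcr1 rose, while Lyz2 and Csf1r were listed in no library. Itgax had 0.27 and 0.35 FPKM in wild type and 0.2 and 0.11 in knockout and did not pass (edgeR adjusted p = 0.0726). The part of these cells in the levels of Id1 and Tcf3 was not tested.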

How the data were processed

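RNA was sequenced from 4 libraries, 2 per genotype. Per the submitters' processing notes, Bowtie and RSEM were used with genome build GRCm38 (mm10); tool versions, strand setting and filters were not given there. The deposited tables hold, per the file headers, a gene's expected count, its FPKM and the length of its transcripts. The FPKM values were scaled by the authors for length and depth; genes not listed for a library were set to 0.

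Expected counts were rounded and tested with edgeR 4.0.16 (R 4.3.3; quasi-likelihood test, TMM, filterByExpr with minimum count 10 and minimum total 15, Benjamini-Hochberg adjustment over all 12677 tested genes). The SE was taken as the size of the log2 fold change over the root of its F statistic. CPM used TMM-scaled totals. The fit was checked on simulated counts with changes larger than those of Id1 and Tcf3. That check does not cover changes of their size. No 2 libraries were duplicates (chi-square per degree of freedom 2.15 and 2.47 within genotypes). Alternatives used DESeq2 1.42.0, limma 3.58.1, other factors and filters, FPKM with pseudocounts of 0.1 or 1, a replicate block, and each library left out. Positions are those of RefSeq genes on GRCm38.

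The 6 genes and the gene lists were chosen with earlier results of these data known. Named genes are the 6 members, Bfar, Il9, up to 4 genes per list with the smallest adjusted p, the 2 nearest patterns per member, and other cells' markers. Smad1, Smad6, Smad7, Skil, Ski, Smurf1, Smurf2, Bambi, Nog, Tgfb1, Rag1 and Ptcra were named after their values were seen. 1 list member is counted but not reported here.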

Additional observations from a re-analysis of the deposited data

How the results depend on the processing

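Of the 6 genes, 2 were called; the count was 1 in edgeR without a filter on low counts, 0 with unfiltered log2(FPKM + 0.1), and 0 to 2 with any 1 library left out. With unfiltered log2(FPKM + 0.1) Id1 had -0.324 (adjusted p = 0.0669) and Tcf3 -0.168 (0.109), and Tcf3 had -0.163 (0.055) in edgeR without a filter; both settings test more genes. With 1 library left out, Id1 ranged from -0.377 to -0.26, Id2 from -0.156 to 0.033, Tcf3 from -0.199 to -0.127, and the log2 Id to E ratio difference from -0.0754 to 0.0347. That difference was -0.0204 from sums, -0.1948 from mean log2 FPKM, 0.0657 with Id1 left out, -0.1834 with Id2 left out and -0.1365 with Tcf3 left out. Id1 and Tcf3 kept their call in DESeq2, limma-voom, both filtered FPKM fits, both other scalings and the fit on genes of at least 1 CPM.

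In DESeq2 the counts called were 0 for helix-loop-helix partners, 4 for TGF-beta and BMP genes, 0 for the EGR route and 4 for factors acting on Il9, and without a filter they were 0, 4, 0 and 3. With 1 library left out they ranged over 0 to 0, 4 to 6, 0 to 2 and 2 to 5, over 3 to 6 for genes that depend on E proteins and over 0 to 1 for HMG-box genes. Lef1 ranged from -0.075 to 0.048, Tcf7l1 from -0.086 to 0.162, Stxbp5 from -0.158 to 0.025 and Marc2 from -0.129 to 0.041. Over all genes 3398 were called; the count was 1707 in DESeq2, 1928 without a filter, 259 with unfiltered FPKM, and 1441 to 2355 with 1 library left out. The cause of these differences was not tested.

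With the replicate block, Id1 had -0.318 (adjusted p = 0.000411) and Tcf3 -0.163 (0.00178), and the same 2 of 6 genes were called. The block gave 3 calls in the EGR route (1 without it), 1 in the HMG-box genes (0 without it) and 3952 over all genes. Same-numbered libraries share only a number: their deviations correlated with r = 0.0955 over 9892 genes. With 26 to 36 counts, depth limits Id3.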
